A study of Caenorhabditis elegans with 4 samples.

Results

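FKH-10 peaks on the X chromosome were the 372 intervals on X among the 1838 peaks of the series list (20.2%, exact 95% interval 18.4 to 22.2), taken by chromosome name with no filter on the peak caller's value. The series list is the deposited peak list that belongs to the experiment as a whole. Chromatin had been immunoprecipitated with an anti-GFP antibody from late Caenorhabditis elegans embryos, and 2 ChIP samples (replicates 1 and 2) and 2 inputs of total chromatin DNA were labelled. All 4 samples were hermaphrodite cultures of strain OP337 with the allele unc119(ed3) and the transgene wgIs377, grown at 20 °C and fixed in 2% formaldehyde. The transgene, brought in by bombardment and outcrossed, holds fkh-10 joined to TY1, EGFP and FLAG tags, beside a copy of unc119 that rescues the allele. The inputs carry the same alleles, and no strain without the tag was analysed here. Where the transgene sits in the genome, and in how many copies, is not given in the labels. Neither native gene is on X, since fkh-10 is found on chromosome I and unc-119 on III.

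FKH-10 is a forkhead protein, a family of transcription factors that bind DNA through a winged-helix domain and are known for switching on genes of particular tissues. In C. elegans the X chromosome decides sex, since hermaphrodites carry a pair of X chromosomes and males a single one. A dosage compensation complex binds X along its length in hermaphrodite embryos and lowers transcription from it, and X holds few of the genes used in the germline. Late embryos are the stage at which body tissues take on their final form.

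In ChIP-seq, DNA bound to the tagged protein is sequenced and intervals with more reads than a control are called as peaks, here by PeakSeq. Each peak carries 1 value, read as the authors' q-value and used only to rank peaks within a list, with rank 1 the lowest q. Read counts are not part of the lists. Sequencing depth is therefore unknown, and no interval below covers more than counting error. Positions are on WormBase WS220, for which no annotation or sequence was used, so places are named by position and were not assigned to genes. Whether the replicates came from separate cultures is not stated. Peaks are not replicates of a condition and each replicate has 1 list, so the comparisons of X with the autosomes are given as shares with their intervals and without a p-value.

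Most X peaks of the series list had no counterpart in either replicate, and about 20% had one in both. A series peak was counted as found in a replicate when it overlapped a peak of that replicate's list by at least 1 bp. Of the 372 X peaks, 81 overlapped both replicate lists (21.8%, interval 17.7 to 26.3), against 15.1% of all series peaks. A further 60 (16.1%, interval 12.5 to 20.3) overlapped replicate 1 alone, with 18.9% over all peaks. Replicate 2 alone accounted for 26 (6.99%, interval 4.62 to 10.1), with 6.58% over all peaks. The largest class was the 205 X peaks found in neither replicate (55.1%, interval 49.9 to 60.2), against 59.4% over all peaks. On the autosomes this class was 60.5% (interval 57.9 to 63.0), which overlaps the interval of X. Chromosomes III and IV were close to X at 56.2% and 56.4%. Since the series list probably rests on these ChIP samples too, its overlap with their lists is not independent support.

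The X share in both replicates was above that of each autosome. On the 5 autosomes as a set 197 of 1466 peaks were in both (13.4%, interval 11.7 to 15.3), and this interval did not meet that of X. Chromosome II came nearest with 54 of 337 (16.0%, interval 12.3 to 20.4). Chromosomes III and V stood at 14.6% (interval 11.2 to 18.6) and 13.8% (interval 10.1 to 18.4). The intervals of II, III and V overlap that of X, and those of IV (13.2%, interval 9.66 to 17.4) and I (4.17%, interval 1.54 to 8.85) do not. Outside the wide block described below, 76 of 367 X peaks were in both (20.7%, interval 16.7 to 25.2). With the wide blocks of the autosomes left out as well, the autosomal share was 12.7%.

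**Figure D1:**
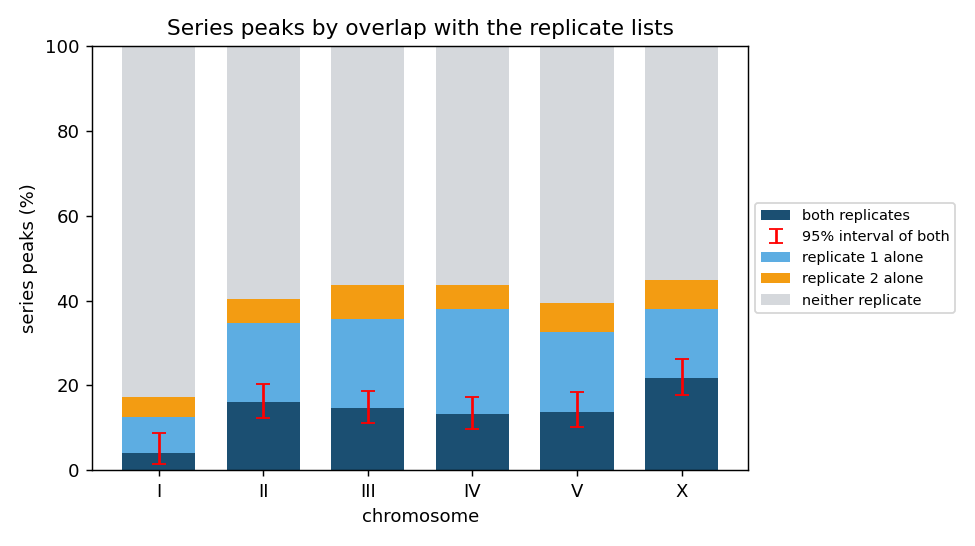
Share of series peaks on each chromosome (bars, in percent) that overlap both replicate lists, 1 of them or neither. The red bars are exact 95% intervals of the share in both, which was 21.8% on X and between 4.17% and 16.0% on the autosomes.

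Sharing between the replicate lists themselves was also highest on X. X held 163 of the 711 peaks of replicate 1 and 126 of the 439 peaks of replicate 2. A peak of replicate 2 was met by 94 of the replicate 1 peaks on X (57.7%, interval 49.7 to 65.4), while over all chromosomes the share was 43.5%. On the autosomes it was 39.2% (interval 35.1 to 43.5), with 45.7% on II the highest. In the other direction 99 of the replicate 2 peaks on X were shared (78.6%, interval 70.4 to 85.4), against 69.7% over all chromosomes. On the autosomes this share was 66.1% (interval 60.6 to 71.4), with 71.6% on IV the highest. The wide block is cut into many pieces in the replicate lists and adds to these counts. Without it 77 of 144 X peaks of replicate 1 (53.5%, interval 45.0 to 61.8) and 76 of 103 of replicate 2 (73.8%, interval 64.2 to 82.0) were shared. The second of these intervals overlaps that of the autosomes.

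Support was concentrated at the top of the ranking on X as in the whole list. Of the 81 X peaks in both replicates, 73 (90.1%) were in the best 20% of the series list, against 247 of 278 (88.8%) over all chromosomes. The median series rank was 878 on X, 875 on chromosome III and 931 on the autosomes as a set. X had 90 of its 372 peaks (24.2%, interval 19.9 to 28.9) in the best 20%, and the autosomes had 278 of 1466 (19.0%, interval 17.0 to 21.1), so these intervals overlap. Within this rank class 73 of the 90 X peaks were in both replicates (81.1%, interval 71.5 to 88.6), against 174 of 278 on the autosomes (62.6%, interval 56.6 to 68.3). The same shares outside all wide blocks were 68 of 85 (80.0%, interval 69.9 to 87.9) and 157 of 241 (65.1%, interval 58.8 to 71.1). Those 2 intervals overlap. With the blocks counted, the difference lay mostly in peaks of replicate 1 alone. These made up 8 of the 90 X peaks (8.89%) and 67 of the 278 autosomal ones (24.1%). Outside the blocks they were 8 of 85 (9.41%) and 49 of 241 (20.3%). In the next 20%, 6 of 73 X peaks were in both (8.22%) and 26 in neither (35.6%), near the 5.98% and 34.2% of all series peaks there. From there to the end of the list 2 of 209 X peaks were in both. Over all series peaks the 20% classes there had 0.817%, 1.09% and 0.545% in both.

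The strongest place on X outside the block was 11605373 to 11606711, 1339 bp wide. It ranked 11 in the series list with a q of 2.95e-65. Its replicate 1 peak ranked 12 (q 3.23e-39) and its replicate 2 peak ranked 13 (q 2.04e-26). No other X place outside the block ranked higher in any of the 3 lists. At 11093882 to 11094326 the interval was 445 bp wide and ranked 34 in the series list, with replicate ranks of 68 and 39. At 12692599 to 12693824 it was 1226 bp wide, with a series rank of 37 and replicate ranks of 41 and 47. These 3 places lie to the right of the midpoint of X, and each was in the best 100 of every list.

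The 20 best X peaks in both replicates outside the block were 346 to 1339 bp wide, with a median of 639 bp, and ranked between 11 and 101 in the series list. Their ranks ran from 12 to 317 in replicate 1 (median 83) and from 13 to 200 in replicate 2 (median 71.5). Replicate 1 placed 15 of them in its best 100 and replicate 2 placed 12. Because the lists differ in length, the places were set side by side by rank as a percent of the list, with a difference of 5 points chosen after the values were seen. A given rank is a larger percent of the shorter replicate 2 list, so the measure favours replicate 1. By this measure 10 of the 20 lay within 5 points, among them the 3 best named above. The peak at 10568260 to 10569072 stood at 10.1% of replicate 1 and 10.3% of replicate 2, that at 12171745 to 12172403 at 14.1% and 14.4%, and that at 410026 to 410620 at 13.6% and 13.2%. The others within 5 points were 8036010 to 8036781 (13.4% and 12.5%), 15274982 to 15275572 (16.5% and 14.8%), 5811867 to 5812643 (10.7% and 15.0%) and 8404221 to 8404792 (17.6% and 21.4%). By plain rank some places within 5 points stood higher in replicate 2, such as 8036010 to 8036781 (ranks 95 and 55).

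Another 8 of the 20 stood higher in replicate 1 by more than 5 points. The widest gap was at 2996941 to 2997330, at 11.8% of replicate 1 and 45.6% of replicate 2, followed by 4209064 to 4209409 (11.5% and 39.2%). The intervals 6296295 to 6296732 (8.02% and 29.4%), 16612140 to 16612877 (10.4% and 30.3%) and 3035906 to 3036329 (7.03% and 25.5%) showed the same order. So did 11467219 to 11467837 (21.9% and 38.0%), 7284527 to 7285222 (12.2% and 23.2%) and 13700585 to 13701037 (7.59% and 17.5%). The remaining 2 stood higher in replicate 2, namely 7650961 to 7651896 (17.7% and 11.4%) and 11030983 to 11032142. The latter was 1160 bp wide and had the lowest replicate 1 rank of the set, at 44.6% of that list and 39.0% of replicate 2.

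Over all 76 X peaks in both replicates outside the block, the lists agreed closely on position and less on rank. The midpoint of the series peak lay a median of 27.5 bp from that of its replicate 1 peak and 20.5 bp from that of its replicate 2 peak. It lay within 100 bp in 61 of 76 cases for replicate 1 (80.3%) and in 68 of 76 for replicate 2 (89.5%). The largest shifts were 289 and 286 bp. In 73 of 76 cases the series peak was wider than both replicate peaks, and in 50 of 76 the replicate 2 peak was wider than the replicate 1 peak. The series peaks had a median width of 449 bp, and their partners 304 bp in replicate 1 and 351.5 bp in replicate 2. Ranks in the replicates had a Spearman's rho of 0.53 over these 76 places, given as a description, since the places share their libraries and were chosen by being in both lists.

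**Figure D2:**
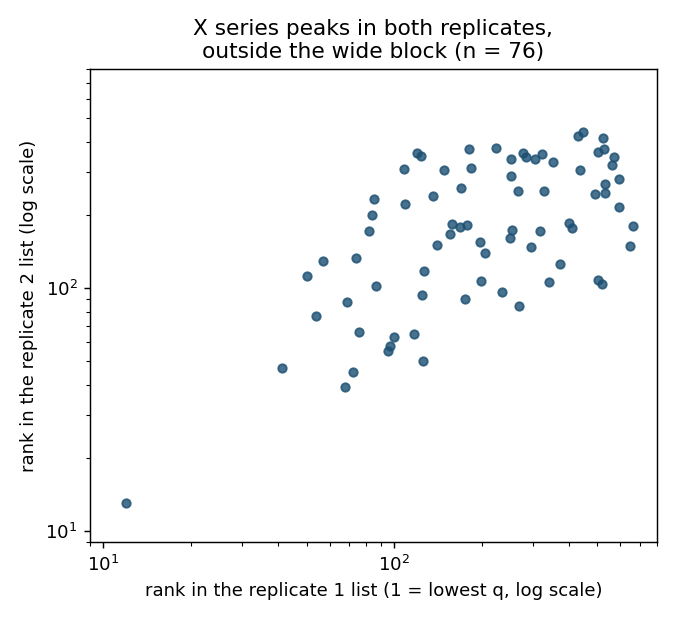
Rank in replicate 1 (horizontal) and in replicate 2 (vertical) of the 76 X peaks found in both outside the wide block, each point 1 peak, on log scales. The peak at 11605373 to 11606711 stands apart at ranks 12 and 13, and the points spread widely at ranks past 100.

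The 2 widest disagreements in each direction, by percent of the list, were as follows. The peak at 9465598 to 9465989 ranked 120 in replicate 1, in its best 16.9%, and 361 in replicate 2, at 82.2% of that list. The interval 16209579 to 16209885 was placed similarly, at ranks 124 and 350. In the other direction, 6742006 to 6742492 ranked 649 in replicate 1, at 91.3% of the list, and 149 in replicate 2, at 33.9%. The peak at 13144958 to 13145557 ranked 663 and 180. Further places that stood higher in replicate 1 had wider gaps than the peak at 13144958. The 4 places were picked out after their values were seen.

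Width followed support. Outside the block the median width was 449 bp for the 76 X peaks in both replicates (quartiles 344 and 638 bp), 295.5 bp for the 26 in replicate 2 alone, 273 bp for the 60 in replicate 1 alone and 209 bp for the 205 in neither (quartiles 152 and 297 bp). The narrowest peak in both was 200 bp wide. Rank moved with width, since the median series rank of the same classes was 170, 501, 695 and 1190. The median over all 372 X peaks was 266 bp, against 221.5 bp on the autosomes, while chromosome I was wider at 294.5 bp. In replicate 2 the median outside the block was 336 bp on X, close to the 332 bp of the autosomes. In replicate 1 it was 252 bp on X and 199 bp on the autosomes. Within the best 20% of the series list the medians were 476 bp on X and 437.5 bp on the autosomes, and within the last 20% they were 188 and 129 bp. The part of peak strength in these widths was not tested.

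**Figure D3:**
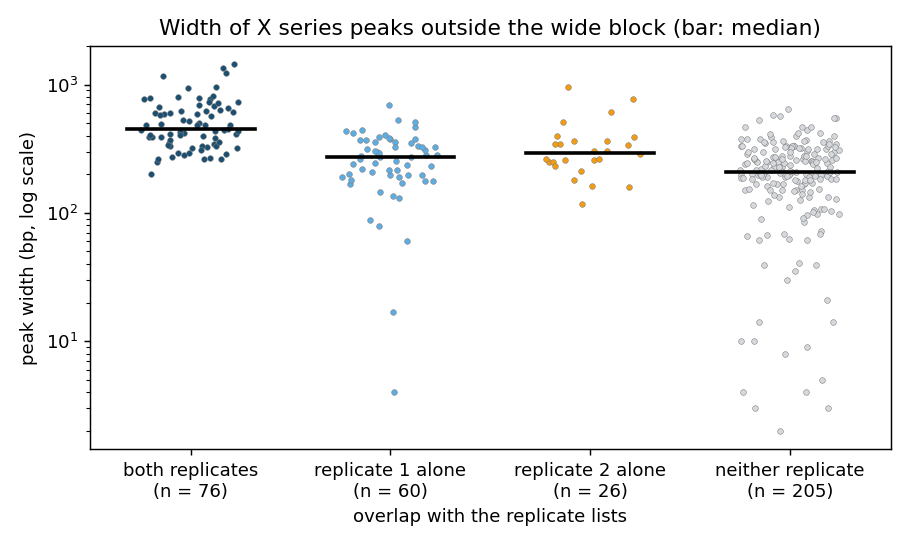
Width in bp (log scale) of each X series peak outside the wide block, grouped by overlap with the replicate lists, with the median as a black bar. Medians fall from 449 bp for peaks in both to 209 bp for peaks in neither, and all peaks in both are at least 200 bp wide.

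Of the 5 widest X peaks outside the block, 4 exceeded 1 kb and all 5 were in both replicates. The widest, 9187190 to 9188629, measured 1440 bp but held only rank 181 of the series list, with replicate ranks of 158 and 183. The fifth, 14908420 to 14909373, was 954 bp wide and ranked 439, with replicate peaks of 375 and 380 bp that covered its right side. The others were the places at 11605373, 12692599 and 11030983 given above.

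Some X places were strong in the series list without a counterpart in 1 or both replicates. The best-ranked X peak in neither list was 8155698 to 8156230, 533 bp wide with q 2.85e-11 and rank 160. The nearest replicate peaks were 119.2 kb away in replicate 1 and 118.9 kb away in replicate 2. The next were 12889775 to 12890349 (rank 220), where the nearest replicate 2 peak was 12.6 kb away, and 9999122 to 9999478 (rank 429). The peaks at 3191423 to 3192062 and 10188138 to 10188686 followed at ranks 472 and 513. Of the 90 X peaks in the best 20% of the list, the first 2 of these were the only ones in neither replicate (2.22%), against 16 of 278 on the autosomes (5.76%).

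Among X peaks found in a single replicate, the best in replicate 1 alone were 5816070 to 5816764 (series rank 161, replicate 1 rank 256) and 12407244 to 12407709 (ranks 183 and 119). At the first of these a replicate 2 peak lay 1.53 kb away, and at the second the nearest was 155.9 kb away. The best in replicate 2 alone were 5210574 to 5210915 (series rank 194, replicate 2 rank 155) and 4388809 to 4389173 (ranks 247 and 166), at 124.8 and 179.4 kb from the nearest replicate 1 peak. The highest-ranked examples were chosen after the values were seen.

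Nearly all replicate peaks were in the series list, on X as elsewhere. On X these were 156 of 163 from replicate 1 (95.7%) and 124 of 126 from replicate 2 (98.4%), and over all chromosomes the shares were 93.5% and 96.4%. Of the 7 missing from replicate 1, 5 were under 100 bp wide. Only 1 place on X was called in both replicates and absent from the series list. It lay at 11787127 to 11787544 in replicate 1 (418 bp, q 4.43e-06, rank 202) and at 11787153 to 11787544 in replicate 2 (392 bp, q 2.33e-05, rank 190), with both intervals ending at the same base. The nearest series peak was 29.2 kb away.

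A span of 36.456 kb near the right end of X, referred to here as the wide block, is described apart from the rest. It held 5 series peaks, which ranked 3, 4, 5, 6 and 8 of the whole list and covered 34.238 kb, or 23.5% of all bases called on X. From left to right they were 4200, 15181, 3084, 4860 and 6913 bp wide, while no other X peak exceeded 1440 bp. Wide peaks were not limited to X, since series peaks reached 31619 bp on chromosome I, 7125 bp on IV and 6189 bp on II. The q of the 15181 bp peak at 16348895 to 16364075 was listed as 0. The other 4 had q-values between 1.82e-216 and 9.34e-124. The flanks were empty, with no series peak for 133.4 kb to the left and 66.1 kb to the right.

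Both replicates called the span, but in pieces. Replicate 1 had 19 peaks there with a median width of 1392 bp, covering 30.575 kb, and replicate 2 had 23 with a median of 947 bp, covering 25.138 kb. These made up 43.1% and 38.2% of the bases called on X in those lists. Ranks of the pieces ran from 5 to 314 in replicate 1 and from 4 to 376 in replicate 2, and 15 and 14 of them were in the best 50 of their lists. The 15181 bp series peak was made up of 9 pieces in replicate 1 and 10 in replicate 2. Such breaks are narrow, since the median distance between neighbouring pieces was 247.5 bp in replicate 1 and 401 bp in replicate 2. No pair of neighbouring X peaks in any list was closer than 202 bp.

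The outer edges of the span were nearly the same in all 3 lists. Calls began at 16343336 in replicate 1 and at 16343719 in replicate 2, which was 11 and 394 bp inside the first series base. Calls of the replicates ended at 16379751 and 16379685, which was 29 and 95 bp before the last series base. Inside, 23.134 kb were called in both replicates (63.5% of the span), 7.441 kb in replicate 1 alone and 2.004 kb in replicate 2 alone. Of the bases called in replicate 2, 92.0% were also called in replicate 1. The largest stretch outside every list was 1274 bp long, at 16347525 to 16348798, and 3 others of 304, 215 and 214 bp were shared by all lists. With 1 list per replicate the difference in called bases has no test.

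Along the chromosome X peaks were spread rather evenly in the series list. The 17 complete bins of 1 Mb held 13 to 27 peaks each outside the block, with a median of 22. Peaks in both replicates were present in every bin, from 1 to 8 with a median of 5, and the highest number was in the bin from 14 to 15 Mb. Replicate 1 had 3 to 13 peaks per bin and replicate 2 had 1 to 11. The bin from 4 to 5 Mb held 25 series peaks, of which 18 were in neither replicate and 1 was in both, whereas that from 14 to 15 Mb held 21, of which 8 were in neither and 8 in both. Replicate 2 alone had 9 of its 26 X places between 4 and 6 Mb.

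**Figure D4:**
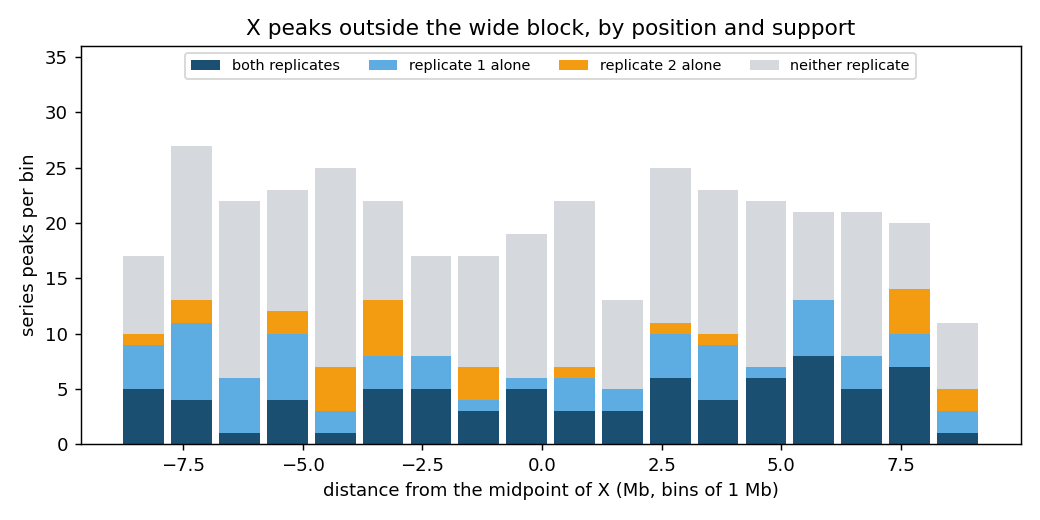
Number of X series peaks outside the wide block in bins of 1 Mb, by distance from the midpoint of X in Mb, coloured by overlap with the replicate lists. The complete bins hold 13 to 27 peaks each and the last bin on the right is incomplete, while peaks in both replicates (dark) number 1 to 8 in the complete bins.

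When X was cut into 3 parts of equal length, the middle part held the fewest peaks. It held 113 of 372 series peaks (30.4%, interval 25.7 to 35.3), with 132 to the left and 127 to the right, and the intervals of the 3 parts overlap. In replicate 1 the middle held 41 of 163 peaks (25.2%, interval 18.7 to 32.5) and in replicate 2 it held 29 of 126 (23.0%, interval 16.0 to 31.4). Much of this came from the pieces of the wide block, which lies in the right part. Without the block the middle share came to 30.8% of series peaks, and to 28.5% and 28.2% of the peaks of replicates 1 and 2. The share of peaks in both replicates was 20 of 132 in the left part (15.2%, interval 9.51 to 22.4), 24 of 113 in the middle (21.2%, interval 14.1 to 29.9) and 32 of 122 in the right part outside the block (26.2%, interval 18.7 to 34.97). These intervals overlap.

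Few X peaks lay within 1 kb of another. Outside the block the median distance between neighbouring series peaks was 30.9 kb, with quartiles of 7.64 and 68.6 kb. The longest stretch with no peak was 371.4 kb, between 6846408 and 7217843. Peaks in both replicates were a median of 146.9 kb apart, and the longest stretch without one ran for 1353 kb, from 1644183 to 2996941. Of the 372 X peaks, 38 lay within 1 kb of another (10.2%, interval 7.33 to 13.8), and the autosomes had 13.2%. Of the 205 peaks in neither replicate, 19 (9.27%, interval 5.67 to 14.1) lay within 10 kb of a peak in both, and the median distance was 84.3 kb. The same count was 10 of 60 (16.7%, interval 8.29 to 28.5) for peaks of replicate 1 alone and 3 of 26 for those of replicate 2 alone.

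When peaks with gaps of up to 10 kb were joined into chains, the 367 X peaks outside the block formed 268 chains. Of these, 194 were single peaks, 52 were pairs, 19 held 3 peaks and 3 held 4. With the block counted, X had 269 of the 1291 chains over all chromosomes (20.8%), near its 20.2% of series peaks. A peak in both replicates was present in 43 of the single peaks, 18 of the pairs and 9 of the chains of 3. The chain from 7650961 to 7655770 held 2 such peaks within 4810 bp, ranked 65 and 214 in the series list, beside 1 in neither. At 5811867 to 5818522 a peak in both (rank 63) was followed by 1 of replicate 1 alone (rank 161) and 1 of replicate 2 alone (rank 329). The longest chain by called bases among those of 4 peaks ran from 14633763 to 14649516, with 1 peak in both (rank 271) and 2 in replicate 1 alone. The chain of 4 at 5975079 to 5984895 held no peak in both and 2 in replicate 1 alone. That at 1051420 to 1064375 was in neither replicate throughout, with widths of 39, 9, 212 and 250 bp.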

How the data were processed

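PeakSeq made the authors' peaks on WS220 of WormBase, per the file headers and each row's source field. Its version and threshold, the aligner, the role of the inputs and any pooling were not given in the sources used here. The deposited value of each peak was read as a q-value, because it stays below 0.001 and its product with the peak number never falls along a list. Samples were grouped by their titles, and the inputs entered no comparison. The members and lists were chosen with earlier results of these data known. Peaks were ranked by q within each list and overlaps of at least 1 bp were counted. Named places were the peaks of the wide block, the 20 best X peaks in both replicates, the 5 best in neither, the 5 widest, the places in both replicates but not in the series list, and the 5 chains with the most peaks. Peaks of the series list no more than 10 kb apart form a chain, and a chain with at least 8 kb called is a wide block. The length of X was taken as the largest peak end, 17645320. Intervals are exact (Clopper-Pearson) at 95%. Alternatives are given in the closing section. The overlap and chain counts were tested on simulated data. A WBcel235 gene table gave the chromosomes of both transgene genes, and no position was taken from it. Python 3.11.15, numpy 2.4.6, pandas 2.3.3, scipy 1.17.1 and matplotlib 3.10.9 were used.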

Additional observations from a re-analysis of the deposited data

How the results depend on the processing

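Of 45 alternative values, 29 stayed within the interval of the reported share and 16 moved. The setting that leaves out every wide block was chosen after the data were seen, and the others were planned. The share of X peaks in both replicates was above that of the autosomes in 8 of 8 alternatives. Those that leave out 1 replicate count overlap with the remaining list only. Without replicate 2 this was 37.9% on X (interval 33.0 to 43.0) and 33.0% on the autosomes. The share in neither was below the autosomal share in 8 of 8, though the intervals of the reported shares overlap. Both replicate-to-replicate shares were above the autosomal ones in 6 of 6. The alternatives reuse the same lists. The share within 1 kb of another peak was below that of the autosomes. At 5 kb it was 37.6% on X (interval 32.7 to 42.8) and 36.4% on the autosomes. At 500 bp it was 5.91% on X (interval 3.74 to 8.82) and 7.23% on the autosomes. Both autosomal values lie within the X intervals. In the stricter 50% of the series list 40.3% of X peaks were in both replicates (interval 33.4 to 47.5), against 26.6% on the autosomes. There 24.5% of X peaks were in neither (interval 18.6 to 31.1), and this interval holds the 30.3% of the autosomes. Of these X peaks 25.0% were in the middle of 3 equal parts. The middle 50% of X held 48.7%. With windows of 200 bp around midpoints, 49.1% of replicate 1 peaks on X were shared (interval 41.2 to 57.0), against 33.6% on the autosomes. For replicate 2 it was 63.5% (interval 54.4 to 71.9), and this interval holds the 58.8% of the autosomes. In the stricter 50% of each list 78.4% of replicate 2 peaks on X were shared (interval 67.3 to 87.1). That interval also holds the autosomal share, 69.7%. Without 1 replicate, X peaks overlapping the remaining list were 28.8% to 37.9% and those not overlapping it 62.1% to 71.2%, which follows from needing 1 list in place of both. The single replicate lists had 22.9% to 28.7% of their peaks on X and 23.0% to 25.2% of their X peaks in the middle part. The cause of the other moves was not tested. No paired analysis was possible because no input list was analysed here and only inputs and ChIP samples share numbers. Without read counts, what depth limits cannot be said.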

Other observations

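Very narrow intervals were found on X as elsewhere. Of the 372 X peaks, 20 were under 50 bp wide (5.38%), against 8.46% on the autosomes. In neither replicate were 18 of these 20 X peaks and 113 of the 124 autosomal ones, which are similar shares. Replicate 1 had 8 such peaks on X (4.91%) and 72 over all chromosomes (10.1%), and replicate 2 had 0 of 126 on X and 1 of 439 in all. By series rank, the weakest X peaks found in both replicates were 11887065 to 11887596 (rank 1167) and 293241 to 293629 (rank 1154). The next weakest ranked 538. The replicate lists placed the first at ranks 430 and 422, but the second at rank 69 in replicate 1 and 88 in replicate 2.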
